A study of Mus musculus with 8 samples.

Results

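The respiratory chain genes described here are protein-coding genes whose symbols follow the naming patterns of subunits of complexes I to V or begin with mt-. Of the 29621 genes in the files, 98 met that rule. Of these, 13 are encoded on the mitochondrial genome and 85 in the nucleus. By complex, 44 belong to complex I, 4 to complex II, 9 to complex III, 21 to complex IV and 20 to complex V. The rule follows symbols, so the subunits Cyc1 and Ndufab1 fall outside it. Genes such as Cox7a2l and Atp5s are counted by symbol alone, whether or not they are structural subunits.

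RNA was sequenced from whole pancreas of C57BL/6 mice at postnatal day 42 (6 weeks) after ribosomal RNA was depleted. All mice carried p48-Cre, a Cre recombinase under the p48 (Ptf1a) locus that is active in the pancreatic lineage. They also carried floxed Trp53 and a Cre-dependent oncogenic allele, and mice with these 3 alleles alone are the KPC group. The KPC-OG group had a further Cre-dependent allele, OG, at the R26 locus, and the series title calls the model antigenic. Each genotype had 4 libraries. The KPC libraries held 7373286 to 11292570 estimated reads and the KPC-OG libraries 13671606 to 18292115. Since no label ties a library to a mouse of its own, the p-values below measure the spread between these libraries, which may be technical.

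Complex I takes electrons from NADH and complex II takes them from succinate. Both pass them to coenzyme Q, complex III passes them on to cytochrome c, and complex IV hands them to oxygen. Complexes I, III and IV pump protons, and complex V (ATP synthase) uses the proton gradient to make ATP. The mitochondrial genome encodes the hydrophobic cores of complexes I, III, IV and V, whereas complex II is wholly nuclear encoded, so assembly draws on both genomes. Acinar cells, which make and secrete digestive enzymes, form most of the normal pancreas and have a high demand for ATP.

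The values of several mitochondrially encoded members depend on copies of the mitochondrial genome in the nuclear genome. A block of unprocessed pseudogenes on the minus strand of chromosome 1 (GRCm38, from 24611535 to 24615565) repeats 6 mitochondrial genes in order. Gm28661 is the copy of mt-Co2, Gm10925 of mt-Atp6, Gm28437 of mt-Co3, Gm28438 of mt-Nd3, Gm10222 of mt-Nd4l and Gm28439 of mt-Nd4. Of these, 5 were identical to the mitochondrial gene over their aligned length, and Gm28438 differed from mt-Nd3 at 1 of 345 bases. The sequences below show how little separates gene from copy. For mt-Co2 and mt-Co3 they are the last bases of the gene and the last bases of the copy, read from the GENCODE M21 transcripts, and capitals mark the bases that the copy lacks. For mt-Nd3 they are the first 36 bases, counted from 1 at the 5′ end of the gene, and capitals mark the substitution T3C.

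mt-Co2: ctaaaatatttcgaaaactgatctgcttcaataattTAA
Gm28661: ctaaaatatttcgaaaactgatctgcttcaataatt
mt-Co3: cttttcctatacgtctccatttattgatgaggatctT
Gm28437: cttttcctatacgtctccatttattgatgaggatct
mt-Nd3: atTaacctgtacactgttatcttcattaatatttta
Gm28438: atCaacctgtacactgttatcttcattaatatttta

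Nearly all reads of these genes had been assigned to the nuclear copy. mt-Co2, a subunit of complex IV that holds a copper center, had 0, 25, 73 and 0 estimated counts in the KPC libraries and 152, 209, 91 and 215 in KPC-OG. Its copy Gm28661 had 5659, 6436, 4969 and 5787 in KPC and 30488, 35334, 22468 and 33941 in KPC-OG. The copy thus held 98.6% to 100% of the reads of the pair in all 8 libraries. The range was 97.7% to 99.9% for mt-Co3, another core subunit of complex IV, 91.3% to 95.5% for mt-Atp6, the proton channel subunit of complex V, and 96.8% to 100% for mt-Nd3 of complex I. For mt-Nd4l the copy took 0% to 29.8%, and Gm28439 had no reads. The plot of gene and copy counts shows both in each library.

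**Figure D1:**
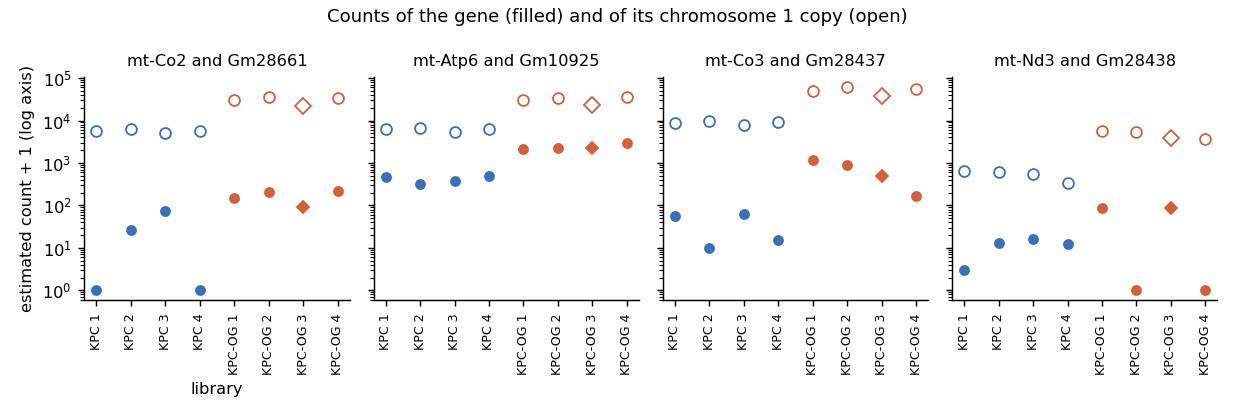
Estimated counts plus 1 (log axis) of 4 mitochondrially encoded genes (filled) and of their chromosome 1 copies (open) in each library, KPC in blue and KPC-OG in orange, with the library KPC-OG 3 as a diamond. In every library the copy lies far above the gene, holding at least 91.3% of the reads of the pair.

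With the reads of each copy added to its gene, none of these 4 genes was called. The log2 fold change of KPC-OG over KPC was -0.08 ± 0.24 (SE) for mt-Co2, -0.14 ± 0.25 for mt-Atp6, 0.04 ± 0.25 for mt-Co3 and 0.61 ± 0.32 for mt-Nd3. Their adjusted p ran from 0.171 to 0.909 (edgeR with Benjamini-Hochberg adjustment over all genes), and this addition was chosen after the data were seen. Without the copies, mt-Co3 stood at 1.70 ± 0.80 and mt-Nd3 at -0.05 ± 1.51, values that rest on few reads in several libraries.

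Of the 13 mitochondrially encoded members, all of which passed the filter on low counts, 1 was higher in KPC-OG and 1 was lower at an adjusted p under 0.05 (edgeR quasi-likelihood test), and 11 were not called. Their median log2 fold change was -0.05. Among all 14267 genes tested, 17.4% were called higher and 16.6% lower, with a median of 0.09. Levels below are CPM, counts relative to the library size times edgeR's TMM factor. In bulk tissue, fewer cells of a type and less RNA per cell cannot be told apart.

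mt-Cytb (chromosome M, 14145 to 15288), which encodes cytochrome b, the only mitochondrially encoded subunit of complex III, was the member called lower. It stood at 933, 1051, 1154 and 752 CPM in the KPC libraries and at 365, 331, 891 and 431 in KPC-OG. KPC-OG 3 lay inside the KPC range, and the other KPC-OG libraries lay below all of KPC. The log2 fold change was -0.95 ± 0.33 (SE), with an adjusted p of 0.0469 by edgeR's quasi-likelihood test. The call was lost when any single library other than KPC-OG 3 was left out (edgeR adjusted p of 0.0573 to 0.124). Of the 20-base words of mt-Cytb, 21.1% also occur in transcripts of other genes.

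The complex I subunits mt-Nd2, mt-Nd4 and mt-Nd5, which belong to the proton-pumping membrane arm, showed the same arrangement of libraries. mt-Nd5 stood at 576, 517, 610 and 390 CPM in KPC and at 165, 159, 547 and 234 in KPC-OG. mt-Nd4 stood at 737, 708, 759 and 553 CPM in KPC and at 252, 235, 710 and 328 in KPC-OG. mt-Nd2 stood at 319, 319, 393 and 263 CPM in KPC and at 118, 117, 343 and 166 in KPC-OG. In each of the 3 genes KPC-OG 3 lay within the KPC range while the remaining KPC-OG libraries lay below it. Their log2 fold changes were -0.92 ± 0.39 (SE), -0.86 ± 0.34 and -0.80 ± 0.34, and none passed edgeR's test (adjusted p of 0.0908, 0.0784 and 0.0921).

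mt-Co1, the catalytic subunit of complex IV, stood at 3473, 3587, 4145 and 2885 CPM in KPC and at 2272, 2210, 3908 and 2491 in KPC-OG. It had the highest TPM of the members as deposited, a rank that leaves out reads credited to the copies of other members. Its log2 fold change of -0.37 ± 0.29 did not pass the test. Without KPC-OG 3, 5 mitochondrially encoded members were called lower, where 17.4% of all genes were lower and 19.7% higher. They were mt-Cytb at -1.36, mt-Nd5 at -1.48, mt-Nd4 at -1.33, mt-Nd2 at -1.26 and mt-Co1 at -0.59 on the log2 scale (edgeR adjusted p of 5.7e-04 to 0.0438). KPC-OG 3 also had the lowest TMM factor of its group, 1.14, and the most acinar marker signal. Its 8 acinar markers summed to 123451 CPM, against 40992 to 76869 in the other KPC-OG libraries and 240878 to 446495 in KPC. It also had the most reads assigned to Lars2, 57664 CPM against 18002 to 31382 in the rest of the group and 318671 to 561235 in KPC. Whether any of these bears on the mitochondrially encoded genes was not tested.

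mt-Nd1, which links the membrane arm of complex I to its redox arm, shares no 20-base word with transcripts of another gene. It stood at 636, 624, 686 and 500.5 CPM in KPC and at 413, 476, 574 and 564 in KPC-OG. The groups overlapped, and the log2 fold change of -0.27 ± 0.19 did not pass the test (edgeR adjusted p of 0.309).

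mt-Atp8 (chromosome M, 7766 to 7969), a small membrane subunit of ATP synthase, was the member called higher. It stood at 62.5, 86.8, 72.2 and 41.5 CPM in KPC and at 142, 158, 109 and 152 in KPC-OG. The groups did not overlap, as was the case in the higher direction for 17.6% of all genes. The log2 fold change was 1.10 ± 0.22 (SE), with an adjusted p of 0.00455 by edgeR, and the call held when each library was left out in turn (adjusted p of 0.00201 to 0.018). It was lost with the trend on transcript length removed, a fit described below, where mt-Atp8 stood at 0.15 on the log2 scale with an edgeR adjusted p of 0.666. At 204 bases it is the shortest of the 13 genes, and it overlaps mt-Atp6, so reads in the overlap cannot be told apart. mt-Nd4l and mt-Nd6, both of complex I, had log2 fold changes of 0.17 ± 0.27 and 0.30 ± 0.27 and were not called.

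**Figure D2:**
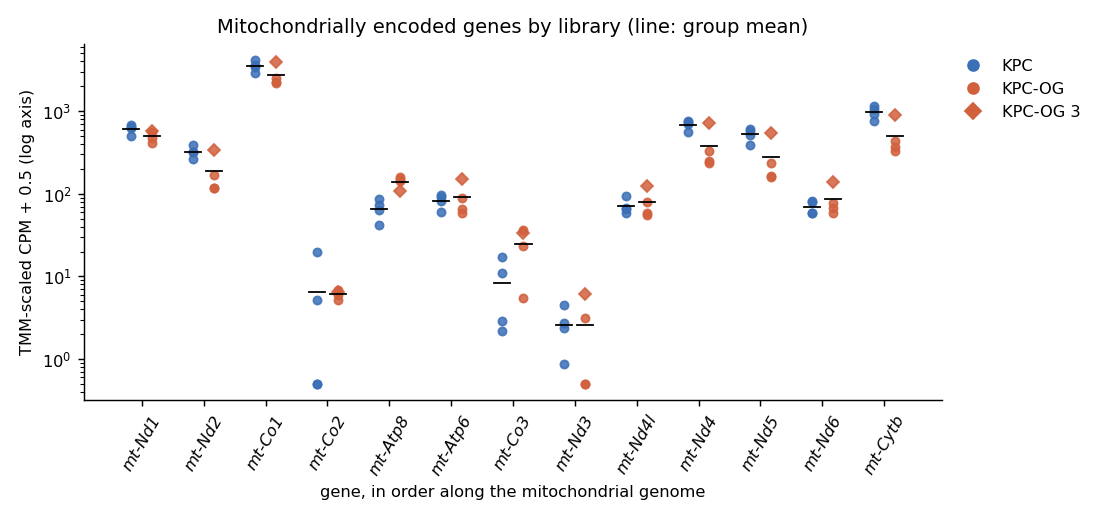
TMM-scaled CPM plus 0.5 (log axis) of the 13 mitochondrially encoded genes, in their order along the mitochondrial genome. Each point is a library, black lines are group means, and the KPC-OG 3 diamond lies among the KPC points for mt-Nd2, mt-Co1, mt-Nd4, mt-Nd5 and mt-Cytb.

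The balance of the genomes was followed as a ratio of sums within each library, which does not depend on scaling between libraries. The 13 mitochondrially encoded members held 2.62, 3.04, 3.45 and 2.30 times the counts of the 85 nuclear encoded members in the KPC libraries. In KPC-OG the ratio was 1.48, 1.49, 2.74 and 1.99. KPC-OG 3 was again the library inside the KPC range, and the rest of its group lay below KPC. The mean ± SD (n = 4 each) was 2.85 ± 0.499 for KPC and 1.92 ± 0.592 for KPC-OG. With the chromosome 1 copies counted as mitochondrial, the means were 4.61 ± 0.788 and 3.53 ± 0.94 (SD) (n = 4 each). KPC-OG 3, at 4.82, again lay inside the KPC range, and the other KPC-OG libraries, at 2.82 to 3.64, lay below the lowest KPC library at 3.80. The arrangement differed when other values formed the ratio. As a difference of mean log2 values, KPC-OG 1 and KPC-OG 4 also lay inside the KPC range, and the genotypes differed by -0.24, against -0.60 for the log2 ratio of the count sums. With members that share over 10% of their words left out, mt-Nd1 alone stood for the mitochondrial genome, KPC-OG 4 also lay inside the KPC range, and the difference was -0.31 on the log2 scale. No p is given for these sums.

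As a share of all gene-level counts, both classes were larger in KPC-OG. The mitochondrially encoded members took 0.336%, 0.466%, 0.432% and 0.315% of counts in KPC and 0.721%, 0.86%, 0.858% and 1.05% in KPC-OG. The nuclear encoded members took 0.128%, 0.153%, 0.125% and 0.137% in KPC and 0.489%, 0.576%, 0.314% and 0.527% in KPC-OG. Neither class overlapped between genotypes on this scale. Lars2 alone held 20.8% to 30% of the counts in KPC and 3.73% to 7.11% in KPC-OG, and all shares are taken of the same total. After TMM scaling the nuclear encoded members summed to 2349 to 2649 CPM in KPC and 2324 to 2755 in KPC-OG, and those ranges overlapped almost entirely. The mitochondrially encoded members summed to 5592 to 8103 CPM in KPC and 3888 to 7539 in KPC-OG.

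**Figure D3:**
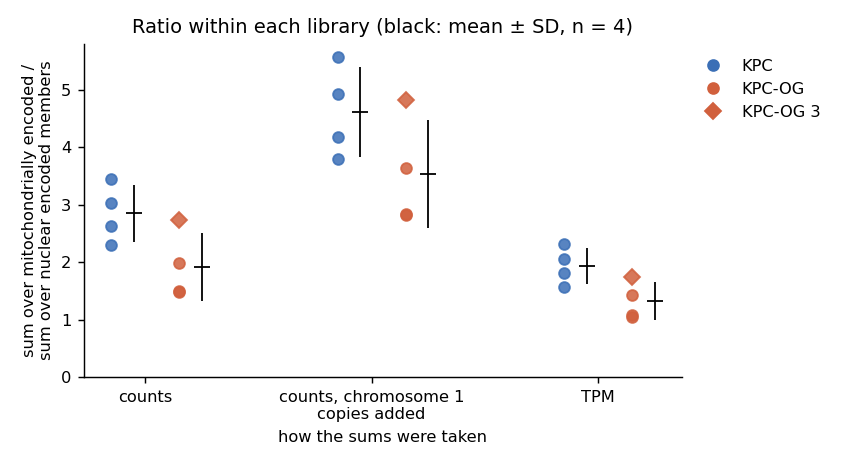
Sum over the mitochondrially encoded members divided by the sum over the nuclear encoded members in each library, from counts, from counts with the chromosome 1 copies added to the mitochondrial sum, and from TPM. Black marks are the mean and SD over 4 libraries; 3 of the 4 KPC-OG libraries lie below every KPC library in the ratio of counts, and KPC-OG 3 does not.

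Of the 85 nuclear encoded members, 76 passed the filter on low counts. In KPC-OG, 22 of them were higher, 7 were lower and 47 were not called, with a median log2 fold change of 0.23. The shares of all tested genes called were 17.4% higher and 16.6% lower. Without scaling for composition every one of the 76 was called higher, as were 91.7% of all genes, and the median of all tested genes was 1.74 higher on the log2 scale than with TMM. The medians were then 1.82 for all genes, 1.96 for nuclear encoded and 1.46 for mitochondrially encoded members. That shift is close to common to all genes, so it tests neither direction nor the order of the classes.

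The direction of the nuclear encoded members followed transcript length. Among the 57 members with transcripts of up to 1000 bases, 22 were higher and 2 were lower, with a median log2 fold change of 0.36. Among the 19 longer ones, 0 were higher by edgeR and 5 were lower, with a median of -0.22. The 5 include Ndufa11, whose length is open to question, as given below. At an unadjusted p under 0.05, 1 of the 19 was higher, and DESeq2 and limma-voom called 0 higher. Spearman's rho between length and log2 fold change was -0.67 over the 76 members, given as a description of genes that share the same 8 libraries. Over all 14267 genes it was -0.24, and the median of all genes fell from 0.73 at up to 500 bases to -0.26 above 6000 bases. In each length class with members, their median lay below that of all genes, for example 0.51 against 0.73 at up to 500 bases and -0.20 against 0.22 between 1000 and 1500 bases.

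When each library's trend on transcript length was removed before the fit, a step chosen after the data were seen, the balance of calls turned around. Then 1 nuclear encoded member was called higher and 24 were called lower, beside 13.9% and 17.6% of all genes. All 7 members first called lower were among the 24. The 1 still higher was Atp5l, at 1.26 on the log2 scale, which has a copy of its own, described below. That fit left out the reads of the copy. No fit removed the length trend with those reads added, so whether the call would then hold was not tested. Of the mitochondrially encoded members 0 were then higher by edgeR and 4 lower, namely mt-Nd1, mt-Nd2, mt-Nd4 and mt-Cytb, and 0 were higher at an unadjusted p under 0.05. That correction was run with edgeR only. The calls of higher members below are therefore calls that do not allow for length, and the source of the length trend was not tested.

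**Figure D4:**
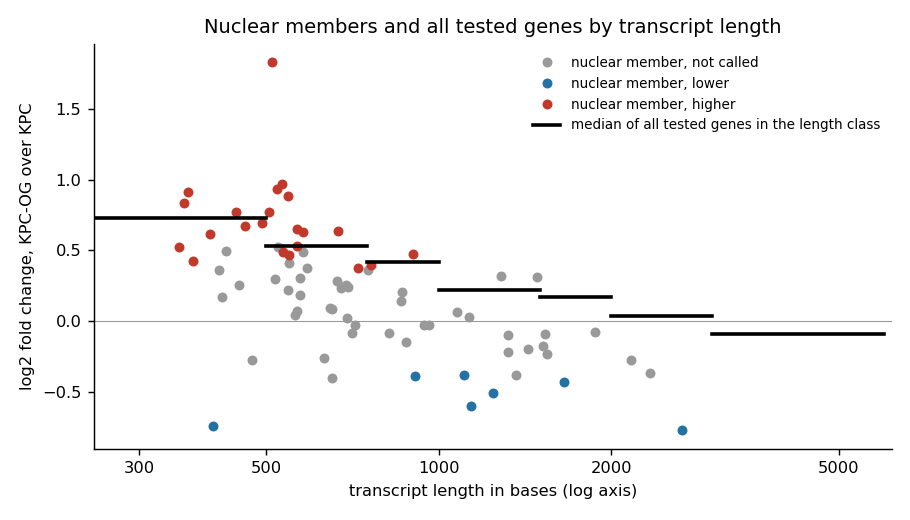
Log2 fold change of KPC-OG over KPC against transcript length in bases (log axis) for the 76 tested nuclear encoded members, coloured by call. Black bars are the medians of all tested genes in 7 length classes, the shortest drawn from the left edge to 500 bases; all members called higher are shorter than 1000 bases.

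In complex I, 36 of 37 nuclear encoded members were tested, of which 7 were higher and 4 lower, with a median of 0.08. The counts here and for the complexes below stand beside 17.4% of all tested genes called higher and 16.6% lower. The 7 core subunits, which carry the flavin and the iron-sulfur clusters, all had negative values between -0.38 and -0.03, and 1 passed the test. It was Ndufv1, the NADH-binding subunit, at 33.4 to 39.9 CPM in KPC and 24.6 to 31.4 in KPC-OG (log2 fold change -0.38 ± 0.12, edgeR adjusted p of 0.0355). The 29 tested accessory subunits, which surround and stabilise the core, held the 7 higher members and 3 of the lower ones. This contrast did not remain with the length trend removed, a fit in which 13.9% of all genes were higher and 17.6% lower. There edgeR called 5 of the 7 core and 12 of the 29 accessory subunits lower, and 0 of either higher. Their medians were then -0.39 and -0.35.

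Ndufc2, an accessory subunit of the membrane arm (chromosome 7, 97400003 to 97407802), had the smallest adjusted p of all members. It stood at 7.45, 8.26, 6.37 and 7.94 CPM in KPC and at 16.1, 14.5, 13.8 and 14.7 in KPC-OG. The groups were well apart, with a log2 fold change of 0.97 ± 0.14 (SE) and an adjusted p of 0.00106 by edgeR. With the length trend removed it was 0.40, with an adjusted p of 0.0508 in the same test. Ndufa4, a subunit now usually placed in complex IV but counted here by its symbol, was higher by 0.69 ± 0.12 and Ndufa7 by 0.67 ± 0.15.

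Ndufa11 (chromosome 17, 56717767 to 56722141), an accessory subunit that helps hold the membrane arm together, was the nuclear encoded member called lower with the largest change. It stood at 8.98, 8.45, 13.5 and 9.29 CPM in KPC and at 5.91, 5.08, 7.27 and 5.21 in KPC-OG. All KPC-OG libraries lay below all KPC libraries. Its log2 fold change was -0.77 ± 0.20 (SE), with an adjusted p of 0.0139 by edgeR, and -0.77 with the length trend removed. The length used for Ndufa11 was 2661 bases, but its transcript held only 526 words in the count of shared words. A transcript of that length would hold nearly as many words as bases. The value with the trend removed, and the place of Ndufa11 among the longer members, therefore rest on a doubtful length. No fit was run with a shorter length for Ndufa11. Ndufa13, an accessory subunit also known as GRIM-19, was lower by -0.51 ± 0.13 on the log2 scale. Ndufb11, the fourth lower member of this complex, stood at -0.39 ± 0.13 and is named outside the rule for named genes.

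Complex II, which is also an enzyme of the tricarboxylic acid cycle, had 1 of its 4 subunits higher and 1 lower. Sdhc, one of the membrane anchors, stood at 29.2, 21.04, 21.5 and 24.5 CPM in KPC and at 38.1, 36.1, 26.4 and 33.4 in KPC-OG. Sdhb, the iron-sulfur subunit, stood at 44.1, 25.0, 34.5 and 33.8 CPM in KPC and at 21.9, 21.4, 28.4 and 19.1 in KPC-OG. In both genes KPC-OG 3 fell inside the KPC range. Their log2 fold changes were 0.48 ± 0.15 and -0.60 ± 0.18 (edgeR adjusted p of 0.0362 and 0.0284), and each call was lost in 6 of the 8 fits that left out a library, with adjusted p up to 0.0992 and 0.0839. Sdhc kept its call without KPC 1 or KPC-OG 3, and Sdhb without KPC 2 or KPC-OG 3. Sdha, the flavin subunit, had -0.08 ± 0.13.

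In complex III, 8 nuclear encoded members were tested, with 3 higher, 2 lower and a median of 0.01. Uqcrc1, Uqcrc2 and Uqcrfs1, the core proteins and the Rieske iron-sulfur protein, all had negative values (-0.43, -0.23 and -0.38), of which Uqcrc1 passed the test. Of the 5 small subunits, Uqcr10 at 0.77 ± 0.14, Uqcrb at 0.49 ± 0.11 and Uqcrh at 0.47 ± 0.16 were higher. Uqcrq, a small subunit of 403 bases and the shortest of the nuclear encoded members called lower, stood at 14.1, 12.96, 15.9 and 9.96 CPM in KPC and at 7.24, 7.18, 11.3 and 5.95 in KPC-OG. The groups overlapped through KPC 4 and KPC-OG 3. Its log2 fold change was -0.74 ± 0.22 (SE) with an edgeR adjusted p of 0.027, and -1.45 with the length trend removed.

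In complex IV, all 11 tested nuclear encoded members had positive values, 5 of them were called higher and 0 lower by edgeR, and the median was 0.36. DESeq2 and limma-voom also called 0 lower, as did an unadjusted p under 0.05. With the length trend removed the median was -0.09 and edgeR called 0 of the 11 in either direction, also at an unadjusted p under 0.05. Cox6c (chromosome 15, 35925886 to 35938246), a small membrane-spanning subunit, stood at 23.3, 25.7, 31.0 and 18.7 CPM in KPC and at 47.7, 46.5, 53.1 and 41.1 in KPC-OG. The groups did not overlap, and the log2 fold change was 0.94 ± 0.16 with an edgeR adjusted p of 0.00212. Cox8a at 0.88 ± 0.17, Cox7c at 0.83 ± 0.14 and Cox6b1 at 0.77 ± 0.13 followed, and Cox5b, named outside the rule, stood at 0.65 ± 0.13. Cox4i1, the most abundant nuclear encoded member of the complex, stood at 92.1, 99.0, 113 and 91.3 CPM in KPC-OG against 91.9, 79.6, 80.9 and 82.6 in KPC, and was not called.

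The common forms of the subunits that have tissue-restricted partners were well above the partners. Ndufa4, Cox4i1, Cox6a1, Cox6b1, Cox7a2, Cox7b and Cox8a all passed the filter, and of these Cox6a1, Cox7a2 and Cox7b had log2 fold changes of 0.31, 0.36 and 0.36 that were not called. Ndufa4l2, Cox4i2, Cox6a2, Cox6b2, Cox7a1, Cox7b2, Cox8b and Cox8c did not pass it. Cox7a1, the heart and muscle form, had 0, 1, 1 and 0 counts in KPC and 21, 12, 1 and 13 in KPC-OG. Cox6b2, the testis form, had 1, 0, 0 and 0 counts in KPC and 14, 23, 2 and 20 in KPC-OG. Ndufa4l2, which is known to be induced by low oxygen, had 1 to 6 counts in KPC and 6 to 37 in KPC-OG. In these 3 genes KPC-OG 3 had the fewest counts of its group. Cox8b went the other way, with 1, 2, 0 and 0 counts in KPC and 5, 3, 17 and 5 in KPC-OG, the most in KPC-OG 3. Since the KPC-OG libraries are deeper, these counts allow no comparison of level.

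Markers of skeletal muscle, heart muscle, brown fat and testis were low, whereas those of pericytes and smooth muscle and of white fat were not. The 6 pericyte and smooth muscle markers summed to 82.5 to 138 CPM in KPC and to 303, 142, 90.5 and 311 in KPC-OG. The 4 white fat markers summed to 17.5 to 78.9 CPM in KPC and to 11.0, 16.8, 165 and 30.0 in KPC-OG. Whether these cells bear on the counts of the restricted forms was not tested. The 8 skeletal muscle markers summed to 0.188 to 1.18 CPM in KPC and 0.363 to 14.6 in KPC-OG, with the highest value in KPC-OG 1, and the 4 heart muscle markers to at most 1.28. The 3 brown fat markers summed to 0 to 0.191 CPM in KPC and 0.982 to 3.22 in KPC-OG, nearly all of it Cidea, and the 3 testis markers were at 0 in every library. The ninth member that did not pass the filter is a readthrough gene that carries the Atp5o symbol, with 0 to 3 counts in KPC and 9 to 34 in KPC-OG.

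In complex V, 17 of 18 nuclear encoded members were tested, with 6 higher, 0 lower by edgeR and a median of 0.31. DESeq2 called 1 lower and limma-voom 0, and 1 was lower at an unadjusted p under 0.05. In the fit without the length correction edgeR called 0 of the 5 subunits of the soluble head and central stalk and 0 of the 4 of the peripheral stalk. At an unadjusted p under 0.05, 1 of the head was lower and 2 of the stalk were higher. DESeq2 called the same number lower in the head, 1, and 0 in the stalk, and limma-voom called 0 in both. Atp5b, the catalytic beta subunit and the nuclear encoded member with the highest TPM, stood at 305, 235, 236 and 279 CPM in KPC and at 261, 223, 226 and 210.1 in KPC-OG. The groups overlapped, and its log2 fold change was -0.20 ± 0.16. Of the 3 genes that encode the same subunit of the proton-driven c ring, Atp5g2 at 0.64 ± 0.14 and Atp5g3 at 0.37 ± 0.13 were higher, while Atp5g1 at -0.26 ± 0.14 was not called. Their mature protein is the same, and their import sequences differ.

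All 4 small membrane subunits of complex V, Atp5mpl, Atp5j2, Atp5k and Atp5l, were higher. Atp5mpl stood at 11.5, 15.2, 13.003 and 12.5 CPM in KPC and at 24.2, 24.3, 31.9 and 18.1 in KPC-OG, with a log2 fold change of 0.91 ± 0.18 and an edgeR adjusted p of 0.00425. Atp5l, subunit g, had the largest log2 fold change of the nuclear encoded members, 1.83 ± 0.29. Of its 20-base words 67.2% also occur in other genes, chiefly the processed pseudogene Gm10221 on chromosome 5, which held 77.8% to 96.1% of the reads of the pair. With those reads added, Atp5l stood at 26.4 ± 2.20 CPM in the KPC libraries and at 40.5 ± 7.52 CPM in those of KPC-OG (SD, n = 4 each). Its log2 fold change was then 0.61 ± 0.15, with an edgeR adjusted p of 0.011.

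**Figure D5:**
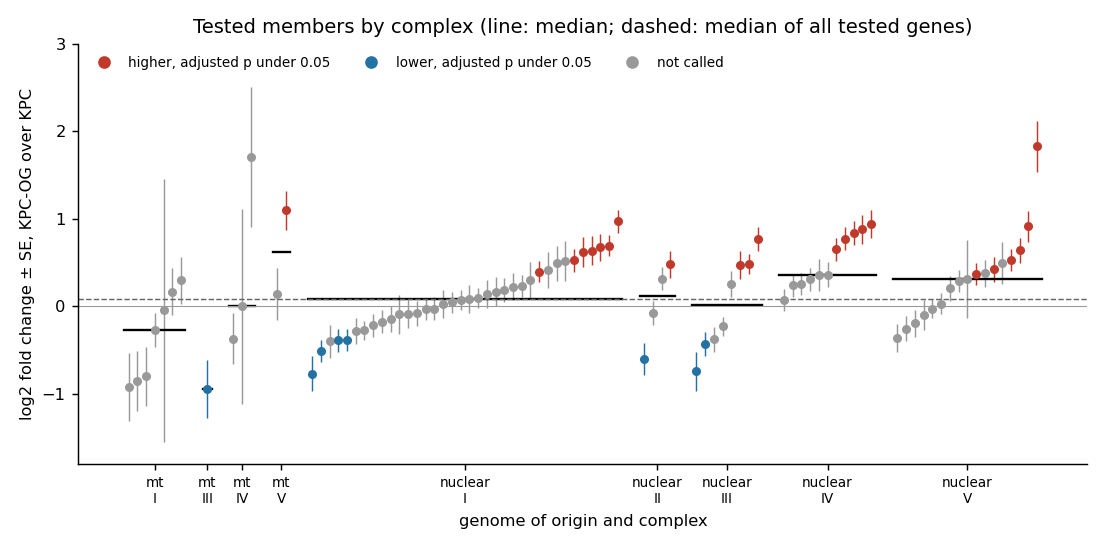
Log2 fold change of KPC-OG over KPC with its SE for the 89 tested members, sorted within genome of origin and complex, with calls in colour and group medians as black lines. Nuclear encoded complex IV lies wholly above 0, whereas mitochondrially encoded members other than mt-Atp8 are not called higher.

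The number of nuclear encoded members called lower varied with the libraries used. It was 2 when KPC 1 or any KPC-OG library but KPC-OG 3 was left out, and 4 without KPC 3 or without KPC 4. It was at most 9 in any of the 8 fits, and the number called higher was between 16 and 23. The calls over all tested genes varied as well, from 1705 to 2548 lower and from 1689 to 2880 higher. Among these 8 fits the call of Uqcrh held only in that without KPC-OG 4 (edgeR adjusted p up to 0.118 in the rest), and that of Uqcrq only in those without KPC 4 or KPC-OG 3 (up to 0.0727). Ndufv1 lost its call without KPC 1, KPC 3 or any KPC-OG library but KPC-OG 3 (edgeR adjusted p up to 0.105), and Uqcrc1 without KPC 1, KPC 4 or the same 3 KPC-OG libraries (up to 0.0879). Among the 22 called genes that the text names by rule, 14 kept their call under every alternative other than library sizes alone and removal of the length trend. On log2(TPM + 1), 2 mitochondrially and 3 nuclear encoded members were lower beside 26.6% of all genes, and without the filter on low counts 0 and 4 were lower by edgeR beside 9.24%.

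Nuclear respiratory factor 1 (NRF1), the ETS-family factor GABP and YY1 are known to bind the promoters of many respiratory chain genes. RefSeq promoters (GRCm38.p6, 250 bases before to 50 after the start) matched 66 of the 84 nuclear symbols, with 71 windows. On either strand, CGCATGCG, a core of the NRF1 motif, was found in 12.7% of these windows and in 1.87% of all 32851. CCGGAAG, a core of ETS motifs, was found in 22.5% and 8.86%, and AAGATGGC, a core of YY1 motifs, in 12.7% and 2.75%. The 2 promoters below are those of the higher and the lower member with the smallest adjusted p among windows that hold 1 of these motifs, leaving out members with over 50% shared words, each printed along the strand of the gene. Capitals mark the ETS core in Cox6b1, which lies there in reverse complement, and the NRF1 core in Ndufa11.

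Cox6b1 (chr7:30626065-30626364, minus strand): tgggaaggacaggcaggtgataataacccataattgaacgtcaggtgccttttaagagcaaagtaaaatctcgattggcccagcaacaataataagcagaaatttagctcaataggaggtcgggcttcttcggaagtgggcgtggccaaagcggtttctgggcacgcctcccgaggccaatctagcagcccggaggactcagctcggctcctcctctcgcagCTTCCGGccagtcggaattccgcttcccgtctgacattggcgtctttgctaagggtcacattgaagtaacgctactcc
Ndufa11 (chr17:56717512-56717811, plus strand): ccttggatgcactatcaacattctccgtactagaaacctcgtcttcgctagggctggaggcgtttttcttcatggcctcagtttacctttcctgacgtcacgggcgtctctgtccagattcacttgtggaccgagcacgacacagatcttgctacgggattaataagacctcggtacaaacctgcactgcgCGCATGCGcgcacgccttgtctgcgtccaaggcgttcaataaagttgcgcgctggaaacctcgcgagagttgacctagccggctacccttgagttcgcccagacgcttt

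Of the 8 regulators of mitochondrial biogenesis on the list, 5 were lower and 0 higher by edgeR, with a median of -0.43. Among all tested genes 16.6% were lower and 17.4% higher. DESeq2, limma-voom and an unadjusted p under 0.05 also gave 0 higher. Gabpa, the DNA-binding subunit of GABP, stood at 27.9, 24.4, 23.4 and 24.1 CPM in KPC and at 20.1, 17.4, 16.96 and 18.3 in KPC-OG (log2 fold change -0.46 ± 0.11, edgeR adjusted p of 0.0125). Yy1 was lower by -0.40 ± 0.11 on the log2 scale, and the coactivator genes Ppargc1a, Ppargc1b and Pprc1, named outside the rule, stood at -0.98, -0.95 and -0.86. Nrf1 stood at 0.22 ± 0.21 and was not called. The shortest of the 8 transcripts measured 1715 bases. With the length trend removed 4 genes were still lower, beside 17.6% of all genes.

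Other mitochondrial gene groups were counted in the same fit, where 17.4% of all tested genes were higher and 16.6% lower. Of the 17 enzymes of the tricarboxylic acid cycle and pyruvate dehydrogenase, 8 were lower and 0 higher by edgeR, with a median of -0.34. With the length trend removed 9 were lower, beside 17.6% of all genes. Here too DESeq2, limma-voom and an unadjusted p under 0.05 gave 0 higher. Idh2, the mitochondrial NADP-dependent isocitrate dehydrogenase, stood at 79.1, 61.2, 56.8 and 68.9 CPM in KPC and at 40.3, 34.5, 44.9 and 32.1 in KPC-OG. The groups did not overlap, and the log2 fold change was -0.81 ± 0.15. Dlst, a subunit of the 2-oxoglutarate dehydrogenase complex, was lower by -0.49 ± 0.10 on the log2 scale.

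Among 16 tested genes of electron carriers and coenzyme Q synthesis, 1 was higher and 2 were lower, with Coq10a at -1.21 ± 0.23 and Cyc1, the cytochrome c1 subunit of complex III, at -0.57 ± 0.15. The 1 higher was Coq10b, at 0.82 ± 0.21, named outside the rule. Of 45 assembly factors 4 were higher and 6 lower, with a median of 0.02. Among those called, the largest change was in Cox15, which takes part in making the heme of complex IV (-1.18 ± 0.17), and Ecsit, a complex I assembly factor, stood at -1.02 ± 0.22. Of 23 tested genes of mitochondrial transcription, replication and RNA handling 4 were higher and 3 lower, with Mterf4 at 0.92 ± 0.21 and Fastkd1 at -0.71 ± 0.17. Of 78 mitochondrial ribosomal protein genes 10 were higher and 6 lower, with a median of 0.03, and Mrpl33 at 1.24 ± 0.15 and Mrpl52 at 0.50 ± 0.12. With the length trend removed, 1 of the 78 was higher and 19 were lower, beside 13.9% and 17.6% of all genes.

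The genotypes also differed in markers of cell types. Of 8 acinar markers 7 were lower in KPC-OG, with a median log2 fold change of -2.05. Of 6 duct markers 4 were higher, as were all 6 macrophage and 5 of 6 fibroblast markers. KPC-OG 3 had the lowest duct and fibroblast sums of its group, 511 and 1588 CPM against 927 to 1124 and 2697 to 4539. The part of these differences in the values of the respiratory chain genes was not tested.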

How the data were processed

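RNA from 8 pancreas libraries (KPC 4, KPC-OG 4) was quantified by the authors with Sailfish 0.6.3, using words of 20 bases, 1000 iterations and bias correction against Ensembl release 76 transcripts, per the file headers. The deposited estimated counts give the reads credited to a transcript, and the deposited TPM values, also made by the authors, are abundances scaled within a library. Per the submitters' processing notes, bcl2fastq, STAR 2.0.4b, edgeR and limma were used, with no role given. Of 86127 transcripts, 83827 matched a GENCODE M21 gene (GRCm38). The rest was not used, and made up 3.93% to 4.23% of the reads of KPC libraries and 1.45% to 3.04% of those of KPC-OG.

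Estimated counts were summed per gene and rounded. The main fit was edgeR 4.0.16 (R 4.3.3), quasi-likelihood and robust, with TMM, filterByExpr, no covariate and Benjamini-Hochberg adjustment over 14267 genes (threshold 0.05). TMM factors were 0.483 to 0.653 for KPC and 1.14 to 2.28 for KPC-OG, and low genes are less precise in KPC. Standard errors are the log2 fold change over the root of F. Strand is not stated, so overlapping genes cannot be told apart. Every pair of libraries within a group differed by more than counting noise (lowest chi-square over degrees of freedom 14.7). Shared words of 20 bases were counted against the GENCODE M21 transcripts. Alternatives were DESeq2 1.42.0, limma-voom (limma 3.58.1), other scalings, no filter, log2 of TPM plus 1 or 0.1, Lars2 left out, a replicate block, each library left out, copies merged and a length trend removed (lowess, span 0.3).

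Members and lists were chosen with earlier results of these data known. The role groups within complexes, the length split, the length trend and the merging of copies were chosen after the values were seen. Named by rule were the 13 mitochondrially encoded members, up to 3 called nuclear members per complex and direction with the smallest adjusted p, the member of highest TPM per complex, the tissue-restricted forms with their common forms, the members under the filter, and 2 called genes per related list. Sdha, Atp5g1, Nrf1 and the other genes said to stand outside the rule were named after their values were seen. The fits were tested on simulated data before use.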

Additional observations from a re-analysis of the deposited data

Results flagged for a closer look

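Highest and lowest libraries were compared with the rest of their group in 80 groups of 4 values, where chance flags about 1 in 20. Fewer groups than that were flagged, and those are given here. The library KPC-OG 3 stood apart for mt-Co1, with 3908 CPM against 2210 to 2491 in the other 3 libraries of its group. The library KPC 3 stood apart for Ndufa11, with 13.5 CPM against 8.45 to 9.29 in the other 3, and Ndufa11 was lower in KPC-OG also without it.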

How the results depend on the processing

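Scaling by library size alone moved every class, with 13078 genes higher and 99 lower, 11 mitochondrially encoded members higher and 0 lower, and 76 nuclear encoded members higher and 0 lower by edgeR (all positive, so 0 lower at any p for the nuclear class). Median log2 fold changes were then 1.46 and 1.96 for mitochondrially and nuclear encoded members, and 1.81, 1.86, 1.73, 2.06 and 2.10 for nuclear complexes I to V. This scaling raises the median gene by 1.74, so 13 named genes with smaller negative values turned positive by construction: mt-Nd1 1.46, mt-Nd2 0.79, mt-Co1 1.29, mt-Nd4 0.73, mt-Nd5 0.64, mt-Cytb 0.64, Atp5b 1.55, Uqcrq 0.92, Ndufa11 0.93, Ndufv1 1.33, Sdhb 1.12, Ndufa13 1.21 and Uqcrc1 1.32. Re-centred on the median gene, medians were 0.12 for nuclear encoded members, -0.0338 for complex I and 0.26 for complex IV. With the length trend removed, 0 mitochondrially encoded members were higher and 4 lower, and 1 nuclear encoded member was higher and 24 lower. Of all genes 13.9% were then higher and 17.6% lower. Medians were -0.62 and -0.26 for the genomes and -0.38, -0.0672, -0.41, -0.0889 and -0.19 for nuclear complexes I to V, and Uqcrb (-0.0924) and Uqcrh (-0.11) reversed.

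On log2(TPM + 1), 3791 genes, 2 mitochondrially and 3 nuclear encoded members were lower, with medians of 0.36 for nuclear encoded members and 0.20, 0.42, 0.17 and 0.67 for complexes I to IV. On log2(TPM + 0.1), 4 mitochondrially encoded members were lower, beside 15.7% of all genes. Medians were then 0.15 for nuclear encoded members and 0.18 for complex V. DESeq2 called 3 mitochondrially encoded members lower, beside 19.1% of all genes. Without the filter 0 mitochondrially and 4 nuclear encoded members were lower by edgeR, beside 9.24% of all genes. Leaving out members sharing over 10% of words left 48 tested nuclear encoded members, 11 higher and 5 lower. In that fit 17.4% of all genes were higher and 16.6% lower. It also left 1 mitochondrially encoded member, mt-Nd1, so the 0 calls there in either direction (edgeR, unadjusted p of 0.194) say nothing of that class. The log2 ratio of the genomes, KPC-OG minus KPC, was -0.60, and -0.24 as a difference of mean log2 values. The causes were not tested.

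With single libraries left out, called members ranged from 0 to 5 (mitochondrially encoded, lower) and from 2 to 9 (nuclear encoded, lower), and the complex IV median from 0.30 to 0.47. Over all tested genes, those called lower then ranged from 1705 to 2548. The replicate block gave 2 mitochondrially encoded members higher and 4 lower, beside 17.4% and 16.9% of all genes. It added mt-Co3 at 1.77 and mt-Nd2, mt-Nd4 and mt-Nd5 at -0.94, -1.001 and -1.10 (edgeR adjusted p of 0.0169, 0.0201, 0.0282 and 0.026). Deviations of same-numbered libraries correlated at 0.274, 0.275, 0.0385 and 0.0361, 2 of 4 KPC and 3 of 4 KPC-OG libraries correlated best with their own number, and the numbers were not taken as pairs. Depth limits the 9 members under the filter and the genes whose reads went to copies.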
